A study of Mus musculus with 12 samples.

Results

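The genes described here are the ZBTB, ZSCAN and ZKSCAN zinc finger genes of the mouse, 63 of the 19938 genes that had a probe set with 1 gene symbol on the array. A gene was taken when its symbol in the platform annotation was Zbtb, Zscan or Zkscan followed by digits, with a final letter allowed, and of several probe sets for a gene the brightest on average was used. There were 40 Zbtb, 12 Zscan and 11 Zkscan genes, and the rule uses symbols only, although these gene families were singled out with earlier results of these data known. Total hippocampal RNA of C57/Bl6 mice aged 7 to 10 weeks was hybridised to Affymetrix Mouse Gene ST arrays, with a separate array for each of 12 mice in 4 groups of 3. The first group were Srf heterozygous mice after 40 min of status epilepticus (SE), continuous seizure activity induced by pilocarpine at 335 or 350 mg/kg, and their controls were heterozygous mice injected with Ringer solution. The third group were Srf mutants with seizures after pilocarpine that, by the study's description, did not reach SE, and the fourth were mutant control mice. Mice given pilocarpine first received methyl scopolamine. The labels also describe diazepam 40 min after SE onset, and the study's methods describe mice as either killed after 40 min of SE or given diazepam, without saying which held for each array. The labels call the heterozygous mice control or WT, but they carried 1 intact Srf allele. All 12 mice carried the tamoxifen-inducible CreERT2 recombinase under the Camk2a promoter and received tamoxifen, so that mutants lost Srf in forebrain glutamatergic neurons and heterozygous mice kept 1 allele there. By the study's description the mutants on these arrays had no SE. A difference between the genotypes in the response therefore cannot be told apart from a difference in seizure severity. The study also profiled mutants that reached SE, which are not among these 12 mice.

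ZBTB proteins join a BTB domain, which forms dimers and binds corepressors such as BCOR, to C2H2 zinc fingers that bind DNA. ZSCAN proteins carry a SCAN domain, which pairs zinc finger proteins with each other, and ZKSCAN proteins carry in addition a KRAB domain, a class of repressor domain known for recruiting TRIM28. Many of these proteins are known as repressors, among them ZBTB18 in developing cortical neurons and ZBTB20 in the developing hippocampus, and several bind methylated DNA.

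Srf had log2 levels of 8.83 to 8.90 on mutant pilocarpine arrays and 8.80 to 8.96 on mutant control arrays, against 10.16 to 10.27 in heterozygous SE and 9.53 to 9.60 in heterozygous controls, so that the labels held. Levels are robust multiarray average (RMA) values on a log2 scale, and array medians lay between 6.78 and 6.86. The activity-regulated gene Fos was higher by 5.34 (log2) in heterozygous SE and by 2.72 in mutants given pilocarpine, each against its own control. All 5 neuron markers looked at (Camk2a, Rbfox3, Snap25, Stmn2 and Syt1) had group means above 11 on every side, in a tissue that also holds glia. Xist, which marks female tissue, was above 9 (log2) in 0 of 3 heterozygous SE, 1 of 3 heterozygous control, 1 of 3 mutant pilocarpine and 2 of 3 mutant control mice. In whole hippocampus, fewer cells of a type and less RNA per cell cannot be told apart.

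Promoter windows of 4 members are printed because Zbtb11 and Zbtb21 rose in SE and hold the full cAMP response element TGACGTCA, while Zbtb6 and Zbtb3 had the 2 largest falls and hold none of the motifs searched. The 4 were chosen by both change and motif, so that the contrast between them is not a result. TGACGTCA was also in the window of Zscan20, which fell, and in none of those of Zbtb1, Zbtb38 and Zscan26, which rose. Zbtb10, with the largest rise, had no matched window. Each window runs 5′ to 3′ on the gene's strand, from 250 bases before to 50 bases after an annotated start (RefSeq, GRCm38.p6). Capitals mark TGACGTCA, or the shorter TGACG and its complement CGTCA.
Zbtb11, chr16:55973554-55973853, plus strand: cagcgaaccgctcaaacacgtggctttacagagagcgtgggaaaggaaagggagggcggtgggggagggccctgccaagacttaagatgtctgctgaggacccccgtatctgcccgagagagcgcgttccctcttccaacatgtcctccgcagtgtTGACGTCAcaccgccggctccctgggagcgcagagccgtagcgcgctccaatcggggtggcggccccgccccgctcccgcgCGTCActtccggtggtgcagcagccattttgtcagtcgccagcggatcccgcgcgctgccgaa
Zbtb21, chr16:97962573-97962872, minus strand: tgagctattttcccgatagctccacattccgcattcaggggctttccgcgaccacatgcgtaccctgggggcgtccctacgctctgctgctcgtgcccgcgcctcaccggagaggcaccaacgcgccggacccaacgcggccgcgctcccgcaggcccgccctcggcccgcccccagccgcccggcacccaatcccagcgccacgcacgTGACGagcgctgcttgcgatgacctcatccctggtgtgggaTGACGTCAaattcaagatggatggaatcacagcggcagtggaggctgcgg
Zbtb6, chr2:37430870-37431169, minus strand: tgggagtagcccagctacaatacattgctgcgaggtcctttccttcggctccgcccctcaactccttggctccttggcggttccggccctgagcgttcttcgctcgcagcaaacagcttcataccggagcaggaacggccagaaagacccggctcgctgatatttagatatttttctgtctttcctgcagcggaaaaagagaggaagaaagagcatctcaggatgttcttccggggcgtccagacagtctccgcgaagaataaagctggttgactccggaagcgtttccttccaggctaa
Zbtb3, chr19:8802263-8802562, plus strand: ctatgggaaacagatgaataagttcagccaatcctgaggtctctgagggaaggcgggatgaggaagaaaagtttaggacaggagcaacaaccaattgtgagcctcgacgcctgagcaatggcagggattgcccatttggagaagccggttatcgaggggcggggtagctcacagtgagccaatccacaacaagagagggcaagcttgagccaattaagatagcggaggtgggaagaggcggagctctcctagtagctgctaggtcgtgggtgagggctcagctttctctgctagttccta

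After 40 min of SE, 7 of the 63 genes rose and 24 fell in heterozygous mice compared with heterozygous controls (limma over all 23410 probe sets with a gene, Benjamini-Hochberg adjusted p under 0.05). That was 11.1% of members higher and 38.1% lower, against 5.08% and 6.93% of all probe sets tested (12% called in either direction). The median log2 fold change was -0.09 over members and -0.03 over all probe sets. Zbtb10 and Zbtb11 had the largest rises, and Zbtb6 and Zbtb3 the largest falls. The 3 SE arrays lay wholly above the 3 control arrays for 11 members and wholly below them for 26, against 10.6% and 19.8% of all probe sets.

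Falls were also frequent among other C2H2 genes, and by count rises made up a larger share of the members than of the Zfp genes. Among 341 genes with a Zfp symbol, 136 fell (39.9%) and 11 rose (3.23%), with a median log2 fold change of -0.17. Within the members, 17 of 40 Zbtb genes fell and 5 rose, 3 of 12 Zscan genes fell and 1 rose, and 4 of 11 Zkscan genes fell and 1 rose. No test was made of the difference between these sets. Left out in turn, heterozygous control replicate 1 reduced the falls to 14, heterozygous control replicates 2 and 3 each to 15, and heterozygous control replicate 3 reduced the rises to 4.

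**Figure D1:**
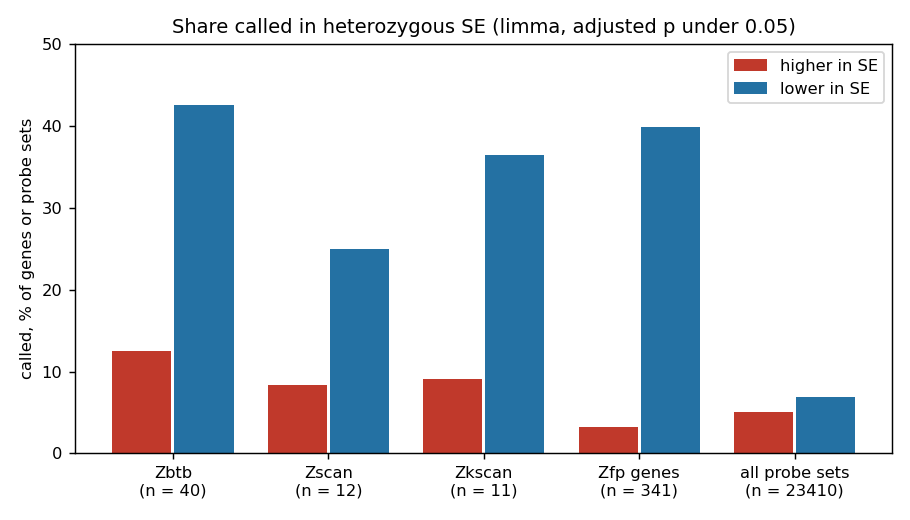
Share of genes called higher (red) or lower (blue) in heterozygous SE over heterozygous control, in percent, for Zbtb, Zscan, Zkscan and Zfp genes and for all probe sets tested. Falls reach 42.5% of Zbtb genes and 39.9% of Zfp genes against 6.93% of all probe sets, and rises reach 12.5% of Zbtb genes against 3.23% of Zfp genes.

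**Figure D2:**
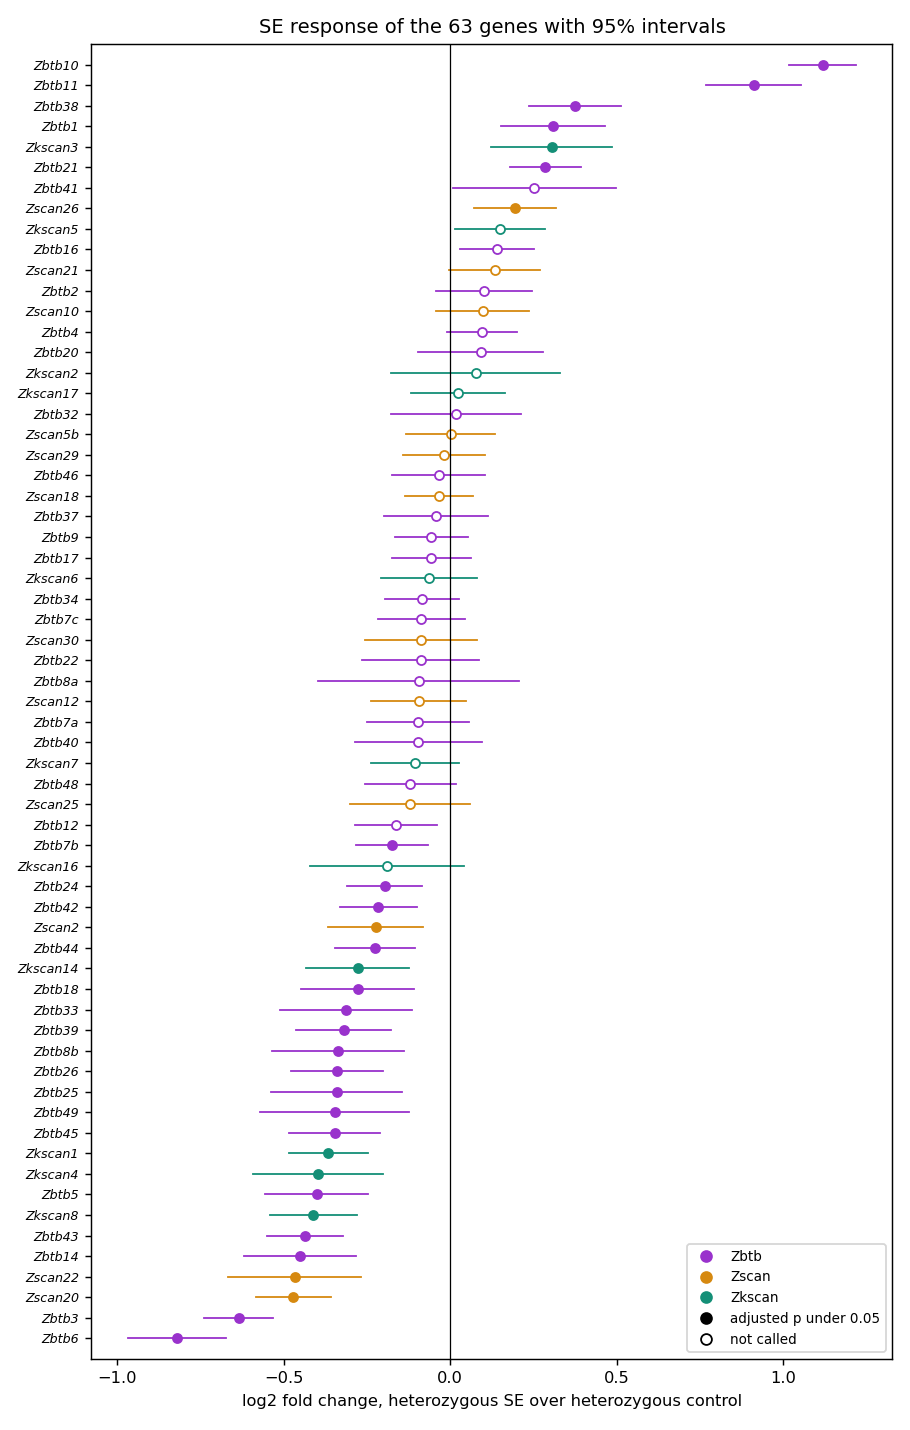
Log2 fold change of each of the 63 genes in heterozygous SE over heterozygous control, sorted, with 95% intervals of the limma fit as lines, colours for the symbol group and filled points for an adjusted p under 0.05. Zbtb10 at 1.12 and Zbtb11 at 0.91 stand apart from the other members at the top, and Zbtb6 at -0.82 is lowest.

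Zbtb10, which in human cells is known to repress genes of Sp transcription factors, was at 8.36, 8.37 and 8.50 (log2) in heterozygous SE and at 7.29, 7.31 and 7.27 in heterozygous controls. The groups were more than 1 log2 unit apart at their nearest arrays. Its level was higher by 1.12 in SE (95% interval 1.02 to 1.22, adjusted p = 6.09e-09, limma), which is 2.17-fold.

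Zbtb11, mutated in an inherited intellectual disability in humans, was at 11.54, 11.65 and 11.73 in heterozygous SE, compared with 10.66, 10.75 and 10.79 in heterozygous controls. Every SE array lay above every control array. The rise was 0.91 (95% interval 0.77 to 1.05, adjusted p = 1.48e-06, limma), or 1.88-fold. Its promoter window, printed above, holds TGACGTCA starting 94 bases before the annotated start.

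Zbtb38, whose protein binds methylated CpG sites, was at 10.60, 10.77 and 10.82 in heterozygous SE and at 10.29, 10.41 and 10.36 in heterozygous controls. The groups did not overlap, and the rise was 0.38 (95% interval 0.24 to 0.51, adjusted p = 0.00179, limma), or 1.30-fold. Zbtb10 was the only member past the cutoffs named in the study's methods, taken here as an adjusted p under 0.001 and a fold of at least 2.

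The remaining rises were smaller. Zbtb1, needed for lymphocyte development, was at 7.07, 7.06 and 7.04 in heterozygous SE and at 6.64, 6.88 and 6.73 in heterozygous controls. That rise was 0.31 (standard error 0.072, adjusted p = 0.0137, limma) without overlap between groups, and it lost its call without heterozygous control replicate 1 or 3. Zbtb21, the other member with a full cAMP response element among those that rose, was at 9.17, 9.30 and 9.15 in SE against 8.87, 8.91 and 8.99 in heterozygous controls. It was higher by 0.29 (standard error 0.049, adjusted p = 0.00182, limma), with all SE arrays above all controls.

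Zkscan3, in human cells a known repressor of autophagy genes, was at 8.27, 8.30 and 8.39 in heterozygous SE and at 8.08, 8.00 and 7.96 in heterozygous controls. Zscan26 was at 9.50, 9.51 and 9.63 in SE and at 9.26, 9.42 and 9.36 in controls. Neither gene overlapped between groups, and the rises were 0.30 (adjusted p = 0.0323, limma) and 0.19 (adjusted p = 0.0421). Both were near the threshold: Zkscan3 lost its call under 7 of 23 alternative settings, each heterozygous SE array left out and heterozygous control replicates 2 and 3 left out among them, and Zscan26 under 15 of 23. The arrays whose omission ended the Zscan26 call were the 3 heterozygous SE arrays, heterozygous control replicates 1 and 3, mutant pilocarpine replicates 1 and 2 and mutant control replicates 1 and 2.

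Zbtb6 had the largest fall. Its level was 7.90, 7.63 and 7.74 in heterozygous SE and 8.56, 8.61 and 8.56 in heterozygous controls. The lowest control lay well above the highest SE array. The fold change was -0.82 (95% interval -0.97 to -0.67, adjusted p = 5.43e-06, limma), which left 0.566 of the control level.

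Zbtb3 was at 7.24, 7.15 and 7.31 in heterozygous SE and at 7.84, 7.87 and 7.89 in heterozygous controls, again without overlap. Its fold change was -0.63 (95% interval -0.74 to -0.53, adjusted p = 2.3e-06, limma), or 0.644 of the control level. For Zscan20 the levels were 6.91, 7.02 and 7.01 in SE, compared with 7.53, 7.43 and 7.40 in controls. The change was -0.47 (95% interval -0.58 to -0.36, adjusted p = 6.7e-05, limma), with every SE array below every control.

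**Figure D3:**
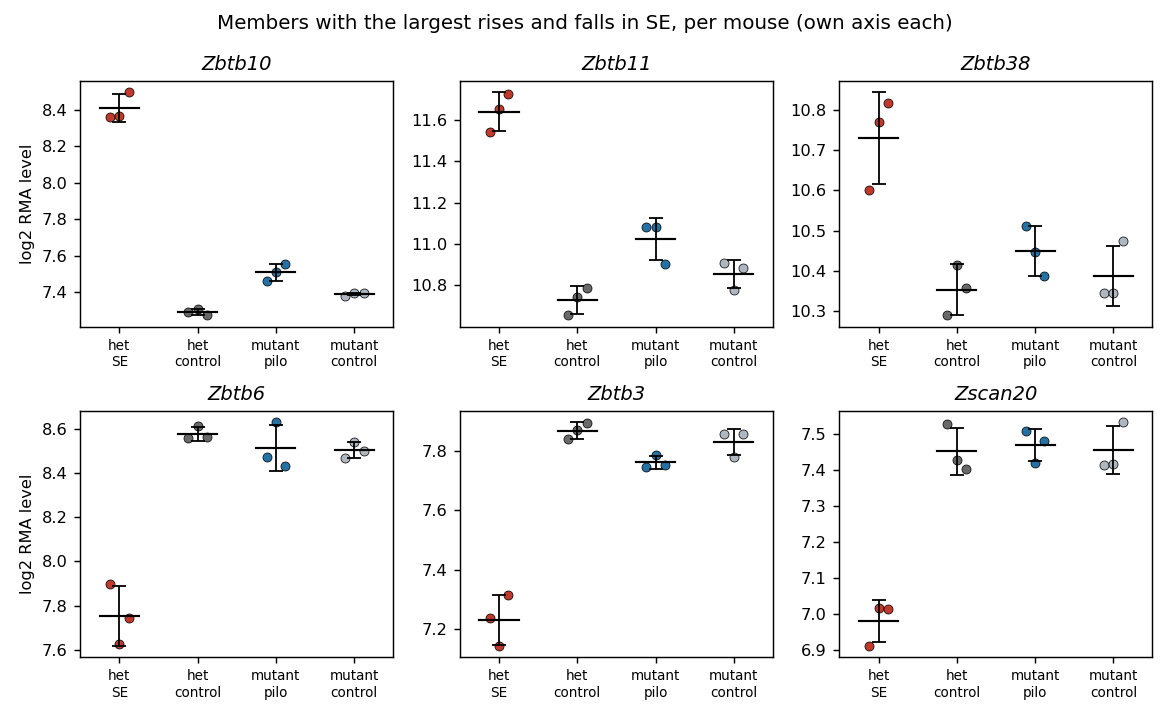
Log2 RMA level of 6 members in each mouse (points), with group mean (line) and SD (bar), n = 3 per group; each panel has its own axis. In heterozygous SE Zbtb10, Zbtb11 and Zbtb38 lie above and Zbtb6, Zbtb3 and Zscan20 lie below all heterozygous controls, and the means of the mutant groups differ by at most 0.17 in these genes.

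The next falls were between 0.44 and 0.47 in size. Zscan22 was at 7.90, 7.78 and 7.81 in heterozygous SE and at 8.25, 8.52 and 8.13 in heterozygous controls. Zbtb14, also called ZF5 and first described as a repressor of the Myc promoter in mouse, was at 8.55, 8.23 and 8.40 in SE and at 8.78, 8.84 and 8.92 in controls. Zbtb43 was at 8.42, 8.26 and 8.41 in SE and at 8.75, 8.85 and 8.79 in controls. None of these genes overlapped between groups. Their log2 fold changes were -0.47 for Zscan22 (adjusted p = 0.00481, limma), -0.45 for Zbtb14 (adjusted p = 0.00199) and -0.44 for Zbtb43 (adjusted p = 0.000141).

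Falls reached KRAB-bearing members too. Zkscan8 was at 7.82, 7.70 and 7.70 in heterozygous SE and at 8.06, 8.28 and 8.11 in heterozygous controls. Zkscan4 was at 6.26, 6.64 and 6.46 in SE and at 6.84, 6.72 and 6.98 in controls, with the narrowest gap between groups of the 3 Zkscan genes that fell and are given here. Zkscan1, whose gene also yields a known circular RNA, was at 10.27, 10.09 and 10.13 in SE and at 10.45, 10.57 and 10.57 in controls. All these arrays separated by group, with log2 fold changes of -0.41 for Zkscan8 (adjusted p = 0.000603, limma), -0.40 for Zkscan4 (adjusted p = 0.011) and -0.37 for Zkscan1 (adjusted p = 0.000687). Without heterozygous control replicate 3 the Zkscan4 call was lost (highest adjusted p over its alternatives 0.0560). Zbtb5, known in human cells as a repressor of the cell cycle inhibitor gene CDKN1A, was at 6.49, 6.46 and 6.50 in SE and at 6.97, 6.77 and 6.92 in controls. It fell by 0.40 (log2, adjusted p = 0.0023) without overlap.

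The other members that fell were Zbtb45, Zbtb49, Zbtb25, Zbtb26, Zbtb8b, Zbtb39, Zbtb33, Zbtb18, Zkscan14, Zbtb44, Zscan2, Zbtb42, Zbtb24 and Zbtb7b, with log2 fold changes of -0.35 to -0.17. Their adjusted p ranged from 0.00271 to 0.0465 (limma), with Zscan2 and Zbtb49 nearest the threshold. Apart from Zbtb33, Zbtb18, Zbtb24 and Zbtb7b, given below, the calls of these genes were not followed singly under the alternatives. Zbtb33 encodes Kaiso, a protein that binds methylated CpG sites, and lies on chromosome X. Its level was 8.55, 8.44 and 8.56 in heterozygous SE and 8.75, 8.90 and 8.84 in heterozygous controls, without overlap. The fall of 0.31 (adjusted p = 0.0427, limma) was 0.37 (adjusted p = 0.00803) with Xist as a covariate. The call was lost under 12 of 23 alternatives, including the omission of any heterozygous array, of mutant pilocarpine replicate 2 or of mutant control replicate 3.

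Zbtb18, a repressor needed for cortical neuron differentiation and migration, was at 11.87, 11.99 and 11.97 in heterozygous SE and at 12.18, 12.21 and 12.28 in heterozygous controls. It fell by 0.28 (adjusted p = 0.0364, limma) without overlap, a call lost under 13 of 23 alternatives, among them the omission of any heterozygous array or of mutant pilocarpine replicate 1 or 2. Zbtb24, mutated in an immunodeficiency with centromere instability in humans, was at 7.60, 7.51 and 7.55 in SE and at 7.73, 7.78 and 7.74 in controls. Zbtb7b, the CD4 lineage factor of T cells, was at 7.48, 7.45 and 7.43 in SE and at 7.70, 7.54 and 7.64 in controls. Both fell without overlap, by 0.20 (adjusted p = 0.0263) and by 0.17 (adjusted p = 0.0391). The Zbtb24 call was lost under 8 of 23 alternatives, with heterozygous SE replicates 2 and 3 and each heterozygous control left out among them, and the Zbtb7b call under 13, with each SE array, heterozygous controls 1 and 3 and mutant pilocarpine replicate 2 left out among them.

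**Figure D4:**
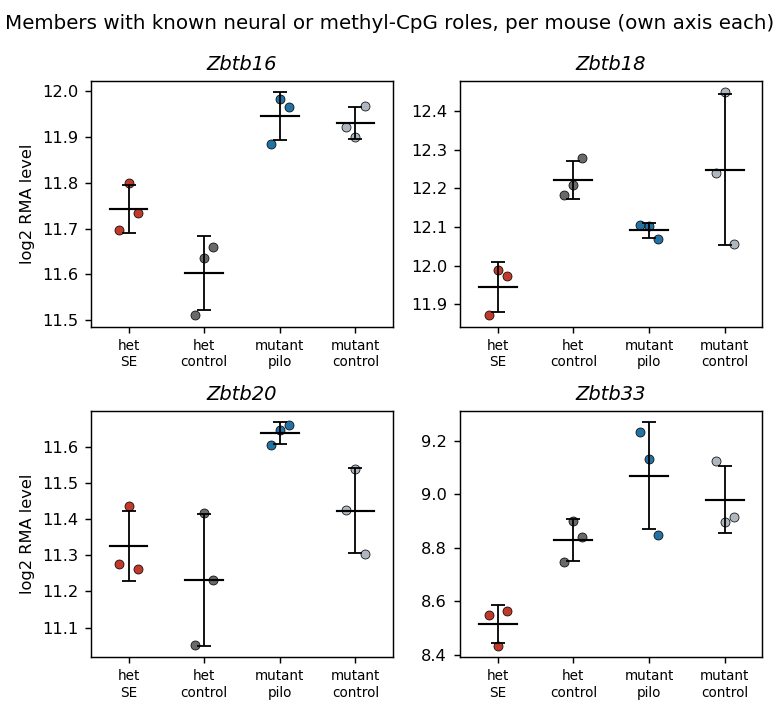
Log2 RMA level of Zbtb16, Zbtb18, Zbtb20 and Zbtb33 in each mouse (points), with group mean (line) and SD (bar), n = 3 per group; each panel has its own axis. Zbtb18 and Zbtb33 lie lower in heterozygous SE than in heterozygous controls, Zbtb16 lies higher in both mutant groups than in both heterozygous groups, and Zbtb20 overlaps between heterozygous SE and heterozygous control.

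Among the 32 members that did not pass the test were several well-known genes. Zbtb20, needed for the identity of hippocampal pyramidal neurons, was at 11.28, 11.44 and 11.26 in heterozygous SE and at 11.05, 11.42 and 11.23 in heterozygous controls, with overlap and a difference of 0.09 (95% interval -0.10 to 0.28). Zbtb16, also known as PLZF, was at 11.70, 11.80 and 11.73 in SE and at 11.51, 11.64 and 11.66 in controls, a difference of 0.14 (95% interval 0.03 to 0.25, adjusted p = 0.103, limma) without overlap.

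Zbtb7a, a repressor of fetal globin genes in human red cell precursors, ranged between 9.41 and 9.58 in SE and between 9.52 and 9.66 in controls (95% interval -0.25 to 0.06). Zbtb17, the MYC partner MIZ-1, ranged between 8.80 and 8.89 in SE and between 8.83 and 8.96 in controls (95% interval -0.18 to 0.06). Zbtb48, a telomere-binding protein in human cells, ranged between 7.30 and 7.52 in SE and between 7.48 and 7.63 in controls (95% interval -0.26 to 0.02). These 3 genes overlapped between groups.

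Several genes best known outside the adult brain, or from its development, overlapped as well. Zbtb32, a lymphocyte gene, lay between 5.98 and 6.25 in SE and between 6.02 and 6.13 in controls, below the array medians throughout. Zbtb46, which marks classical dendritic cells, lay between 7.34 and 7.43 in SE and between 7.36 and 7.48 in controls. Zscan10, a pluripotency gene of embryonic stem cells, lay between 6.89 and 7.01 in SE and between 6.75 and 7.01 in controls. Zscan21, linked in mouse to proliferating cerebellar granule cell precursors, lay between 6.95 and 7.17 in SE and between 6.90 and 6.99 in controls. The 3 probe sets of Zscan4 genes each carried several genes and are not reported as members.

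Neighbouring members did not always move together. Zbtb25 and Zbtb1 lie next to each other on chromosome 12 with no coding gene between them in RefSeq order, and in SE Zbtb25 was lower by 0.34 (adjusted p = 0.0274) while Zbtb1 rose. In a run of members on chromosome 13, Zkscan3 and Zscan26 rose, Zkscan4 and Zkscan8 fell and Zscan12 was at -0.09 (adjusted p = 0.435). By contrast, Zbtb6 and its neighbour Zbtb26 on chromosome 2 both fell, Zbtb26 by 0.34 (adjusted p = 0.00349).

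The annotated gene span had a median of 26.9 kb over the 7 genes that rose, 13.3 kb over the 24 that fell, 20.1 kb over the 32 others and 19.2 kb over all coding genes on the array. The 7 genes that rose spanned 11.6 to 48.9 kb and the 24 that fell 2.37 to 46.2 kb, so that the ranges overlapped, and no test was made.

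A promoter window was matched for 51 of the 63 members. A gene counted for a motif when any of its windows held it, and some genes had several windows (32851 windows for 27025 genes). Zbtb38, Zbtb14 and Zbtb18 held the motif GCGNGGGCG, counted below, in some but not all of their windows. The cAMP response element TGACGTCA, searched on both strands, was in the windows of 2 of 5 matched genes that rose (Zbtb11 and Zbtb21), 1 of 23 that fell (Zscan20) and 1 of 23 others, and in 2.03% of 27025 genes with a window. The shorter TGACG, which every TGACGTCA contains, was in 3 of 5, 8 of 23 and 4 of 23, and in 23.0% of all genes. The early growth response motif GCGNGGGCG was in 2 of 5, 3 of 23 and 2 of 23, and in 6.27% of all. The AP-1 motif TGANTCA was in 0 of 5, 1 of 23 and 1 of 23, and in 8.97% of all. The CArG box, the sequence that SRF binds, was in none of the 51 members' windows and in 1.81% of all genes. Zbtb10, which had the largest rise, was among the 12 members without a matched window.

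Genes of related structure and function under other symbols were counted from lists. Of 6 other BTB zinc finger genes, 3 rose and 1 fell in heterozygous SE, with a median log2 fold change of 0.15. Bcl6b averaged 7.17 ± 0.25 in SE and 6.24 ± 0.12 in controls (SD, n = 3), a rise of 0.93 (adjusted p = 8.78e-05, limma), and Bcl6, the germinal centre repressor, averaged 10.47 ± 0.16 in SE and 9.92 ± 0.13 in controls, a rise of 0.55 (adjusted p = 0.0015). Zfp131 rose by 0.32 and Patz1 fell by 0.21. Of 11 measured SCAN domain genes with other symbols, 5 fell and 0 rose, and all 11 had negative log2 fold changes, with a median of -0.27. Over all probe sets tested 5.08% rose and 6.93% fell, and 14336 of 23410 had a negative log2 fold change, as did 274 of 341 Zfp genes. Genes of these lists with Zfp symbols, among them all 5 SCAN genes that fell, were also counted with the Zfp genes above. Zfp174 had the largest change of the SCAN list at -0.62 (adjusted p = 5.07e-05, limma), and Zfp263 followed at -0.51 (adjusted p = 0.000331). Of 16 measured corepressors and partners, which also include histone deacetylases and the KRAB partner Trim28, 1 rose and 2 fell. Bcor, a BCL6 corepressor, rose by 0.30 (adjusted p = 0.0434), Atf7ip, a partner of the methyltransferase SETDB1, fell by 0.20 and Rbx1, a ubiquitin ligase subunit, fell by 0.16.

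Of the cell type markers measured, Sst rose by 0.31 and Cx3cr1 fell by 0.19 in heterozygous SE, and the others were not called, although some of their differences were as large as those of members. The summed level of 3 dentate granule cell markers was 11.82 to 12.05 in SE and 11.56 to 11.85 in controls, with 0 of 3 called, and all 3 log2 fold changes were positive, up to 0.32 for Dsp. All 4 choroid plexus markers had negative log2 fold changes, down to -0.57 for Ttr (adjusted p = 0.583), with 0 of 4 called and a summed level of 9.73 to 9.86 in SE and 9.58 to 10.85 in controls. The 4 interneuron markers summed to 13.66 to 13.69 in SE and 13.52 in each control. Among them Sst rose as given above, while Gad1 was at 0.04, Gad2 at 0.01 and Pvalb at -0.16 (log2 fold change). The 5 neuron markers summed to 15.63 to 15.68 in SE and 15.68 to 15.69 in controls. The 4 pyramidal cell markers (Wfs1, Fibcd1, Grik4 and Bok) summed to 12.65 to 12.74 in SE and 12.76 to 12.84 in controls, without overlap. Their log2 fold changes ran from -0.14 for Fibcd1 to 0.04 for Bok (3 negative, 1 positive), with 0 of 4 called. The part of these cell type markers in the changes of the members was not tested.

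In Srf mutants, pilocarpine was followed by no call among the 63 genes. With limma, 0 rose and 0 fell against mutant controls, where 0.871% of all probe sets were called higher and 0.965% lower (1.84% in either direction). At an unadjusted p under 0.05 there were 8 members, 4 higher and 4 lower, against 14.8% of all probe sets. Pilocarpine arrays lay wholly above mutant controls for 3 members and wholly below for 6, against 7.04% and 11.4% of all probe sets. Without mutant control replicate 1, Zkscan3 was called lower. Zkscan8 had the smallest adjusted p, with 7.92, 7.85 and 7.94 in mutants given pilocarpine and 8.07, 8.15 and 8.14 in mutant controls. These groups did not overlap, and the difference was -0.21 (standard error 0.06, adjusted p = 0.0949, limma).

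The largest difference in mutants was that of Zbtb41, at 8.80, 8.67 and 8.38 with pilocarpine and 8.44, 8.33 and 8.13 in mutant controls, where the groups overlapped. It was 0.32 (adjusted p = 0.188, limma), and in heterozygous SE the same gene differed by 0.25 (adjusted p = 0.189). Of the Zkscan genes, 10 of 11 had a negative log2 fold change in mutants, compared with 18 of 40 Zbtb and 6 of 12 Zscan genes. Among Zfp genes 215 of 341 were negative, as were 7 of 11 SCAN domain and 1 of 6 BTB zinc finger genes with other symbols. The Zkscan median was -0.12, against -0.00364 over all probe sets, and none was called. No test was made of the difference between the symbol groups. Of the 24 genes that fell in heterozygous SE, 14 had a negative log2 fold change in mutants, and of the 7 that rose 4 had a positive one. For comparison, 34 of all 63 members were negative and 29 positive in mutants, and of 23410 probe sets 12117 were negative and 11293 positive. Over the 63 genes the responses of mutants and heterozygous mice, which share no array, had a Pearson r of 0.40 and a Spearman rho of 0.40, given as a description across genes, which are not independent replicates.

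Both genotypes responded differently in 9 members by the interaction of the fit, mutant response minus heterozygous response. For 6 the difference was positive and for 3 negative, compared with 1.47% and 2.12% of all probe sets (3.59% in either direction). The interaction contains the heterozygous contrast with its sign turned and shares its 6 arrays, so that it is no independent measure of that response. Among Zfp genes the difference was positive for 54 of 341 (15.8%) and negative for 6 (1.76%).

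Zbtb10 was at 7.46, 7.51 and 7.56 in mutants given pilocarpine and at 7.38, 7.39 and 7.39 in mutant controls. The arrays separated, but the difference was 0.12 (95% interval 0.02 to 0.22, adjusted p = 0.235, limma), against 1.12 in heterozygous mice. The difference between the responses was -0.998 (standard error 0.065, adjusted p = 2.4e-06). Zbtb11 was at 11.08, 11.08 and 10.90 with pilocarpine and at 10.91, 10.78 and 10.88 in mutant controls, with overlap. It differed by 0.17 in mutants (95% interval 0.02 to 0.31) and by 0.91 in heterozygous mice, a difference of -0.74 (standard error 0.092, adjusted p = 0.000592, limma).

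Of the genes that fell, Zbtb6 was at 8.47, 8.63 and 8.43 in mutants given pilocarpine and at 8.47, 8.54 and 8.50 in mutant controls, which overlapped. Its response was 0.01 in mutants (95% interval -0.14 to 0.16), and the difference from heterozygous mice was 0.83 (adjusted p = 0.000332, limma). Zbtb3 was at 7.75, 7.79 and 7.75 with pilocarpine and at 7.86, 7.78 and 7.85 in mutant controls, with a difference between responses of 0.57 (adjusted p = 0.000442). Zscan20 was at 7.51, 7.42 and 7.48 with pilocarpine and at 7.41, 7.42 and 7.53 in mutant controls, with a difference of 0.49 (adjusted p = 0.00256). Both overlapped between mutant groups, and the calls of these 5 genes were kept with every array left out in turn.

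The 4 other differences were nearer the threshold. They were 0.41 for Zbtb5 (adjusted p = 0.0437, limma), 0.34 for Zbtb43 (adjusted p = 0.0253), 0.31 for Zkscan1 (adjusted p = 0.0485) and -0.33 for Zscan26 (adjusted p = 0.0401). The Zbtb43 call was lost without heterozygous control replicate 2 or 3, any mutant pilocarpine array or mutant control replicate 1. Zkscan1 kept its call only when heterozygous SE replicate 1 or heterozygous control replicate 1 was the array left out, Zscan26 only for heterozygous SE replicate 1 or heterozygous control replicate 2, and Zbtb5 only for heterozygous control replicate 2, mutant pilocarpine replicate 2 or mutant control replicate 2. Members whose interaction was not called, such as Zbtb38 at -0.31 (adjusted p = 0.0847) and Zkscan8 at 0.20 (adjusted p = 0.278), are not shown to respond alike in both genotypes.

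**Figure D5:**
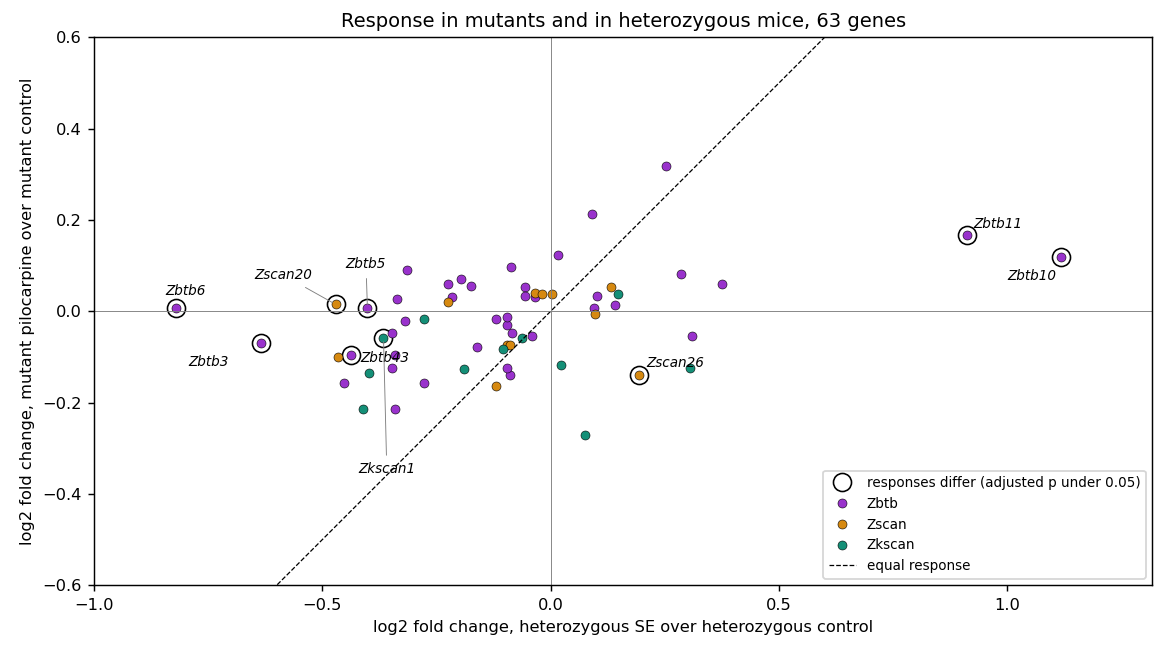
Log2 fold change of the 63 genes in mutants (pilocarpine over control, vertical axis) against that in heterozygous mice (SE over control, horizontal axis); colours mark the symbol group, rings mark the 9 genes whose responses differed, and the dashed line marks equal responses. Zbtb10 and Zbtb11 lie far to the right at 0.12 and 0.17 on the vertical axis, and Zbtb6 lies far to the left at 0.01.

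Without pilocarpine, 1 of the 63 genes differed between mutant and heterozygous controls: Zbtb16 was higher, and none was lower, where 0.0384% of all probe sets were called higher and 0.0812% lower. Zbtb16, a transcription factor of stem and progenitor cells, was at 11.92, 11.90 and 11.97 in mutant controls and at 11.51, 11.64 and 11.66 in heterozygous controls. The groups did not overlap, as in 6.1% of all probe sets for this direction, and the difference was 0.33 (95% interval 0.22 to 0.44, adjusted p = 0.0387, limma), or 1.26-fold. Levels were also high with pilocarpine in mutants, at 11.89, 11.98 and 11.97. The call was lost with any 1 of the 12 arrays left out and under 17 of 23 alternatives in all (adjusted p 0.00860 to 0.224). The interneuron markers Gad1, Gad2, Pvalb and Sst were each above the heterozygous controls on all mutant control arrays, 0 of 4 called, with a summed level of 13.60 to 13.69 in mutant controls and 13.52 in each heterozygous control. The astrocyte markers Aqp4 (-0.18) and Slc1a3 (-0.07) and the microglia marker Cx3cr1 (-0.24) lay wholly below, none called, while the other astrocyte and microglia markers overlapped. The pyramidal cell markers Wfs1, Fibcd1, Grik4 and Bok summed to 12.61 to 12.71 in mutant controls and 12.76 to 12.84 in heterozygous controls. Singly all 4 overlapped and 0 were called, with log2 fold changes of -0.21 for Wfs1 to 0.04 for Grik4 (3 negative, 1 positive). The part of these cell type markers in the Zbtb16 difference was not tested.

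At an unadjusted p under 0.05 there were 3 members in that comparison (4.76%), against 8.73% of all probe sets. Besides Zbtb16 they were Zbtb20, with a difference of 0.19 (adjusted p = 0.566, limma), and Zbtb42, with -0.14 (adjusted p = 0.51). Zbtb20 was at 11.43, 11.54 and 11.30 in mutant controls, which overlapped the heterozygous controls given above. The 6 BTB, 11 SCAN and 16 corepressor genes of the lists had 0 calls in this comparison and 0 in mutants after pilocarpine, and among them the responses of Bcl6b (-0.87) and Zfp24 (0.31) differed between the genotypes.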

How the data were processed

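The authors scanned Affymetrix Mouse Gene ST arrays and processed them with Affymetrix Expression Console; the deposited values are log2 RMA levels, whose background correction and quantile normalization compress small differences and remove any global shift. Versions are not given in the sources used here. The number of arrays, 12, limits precision. Of 35556 probe sets, 23410 had a gene (21789 had 1 gene, 1621 several) and were tested.

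With limma 3.58.1 in R 4.3.3, lmFit gave a mean for each of 4 groups and eBayes was applied without a trend; p-values were adjusted by Benjamini-Hochberg over the 23410 probe sets, with 0.05 as the limit for a call. The mice were separate animals, 1 array each. Zbtb2, Zbtb20, Zbtb44 and Zkscan17 had 2 probe sets each, and the brighter one was used. The dimmer Zbtb44 probe set was not called in SE (-0.16, adjusted p = 0.325), while the brighter one was. No low-level filter was used. Named members were the 10 largest rises and falls called in SE, all called in another contrast and those with a well-known role; Zbtb41, Zbtb42, Zbtb25, Zbtb26, Zscan12 and the smaller falls in SE were named after their values were seen. Members and lists were chosen with earlier results of these data known. Summed marker levels are log2 of summed linear values. Zfp496 was not analysed here as a single gene. Animal numbers do not pair the samples. Member symbols came from the platform annotation. Chromosomes, gene spans and promoter windows came from RefSeq tables of GRCm38.p6. Promoter windows and gene spans were read with Python 3.11.15 and pandas 2.3.3, and figures used numpy 2.4.6 and matplotlib 3.10.9. The fit was tested on simulated data. Alternatives covered normalization, filters, probe sets, weights, a replicate block, Xist and each array left out.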

Additional observations from a re-analysis of the deposited data

Results flagged for a closer look

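The responses of 9 members differed between Srf mutants given pilocarpine without SE and heterozygous mice after SE, by the interaction term of the limma fit. Seizure severity and genotype cannot be told apart in this term. The mutant response minus the heterozygous response (log2) was -0.998 for Zbtb10 (adjusted p = 2.40e-06), -0.745 for Zbtb11 (adjusted p = 0.000592) and -0.333 for Zscan26 (adjusted p = 0.0401). It was 0.829 for Zbtb6 (adjusted p = 0.000332), 0.566 for Zbtb3 (adjusted p = 0.000442), 0.486 for Zscan20 (adjusted p = 0.00256), 0.408 for Zbtb5 (adjusted p = 0.0437), 0.341 for Zbtb43 (adjusted p = 0.0253) and 0.307 for Zkscan1 (adjusted p = 0.0485).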

How the results depend on the processing

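Direction was followed only for the members named by the rule, and none of their calls turned its direction under any alternative. Among their uncalled SE values, that of Zbtb32 did (-0.05 to 0.08). With the study's limits (adjusted p under 0.001 and at least 2-fold), 1 member was higher and 0 lower in heterozygous SE, 0 higher in mutant controls, and 0 differed in response either way. Zbtb16 in mutant controls gave 0 calls over all probe sets, after a second quantile normalization, with only the compared groups and with Xist as a covariate. Animal numbers do not pair mice (correlations of deviations -0.312 to 0.323, with 3 of 12 arrays closest to one of their own number); with a replicate block, 6 rose and 21 fell in SE, and 3 positive and 2 negative response differences were called. Centred on array medians, 6 rose and 16 fell in SE. With 1 array left out, SE rises numbered 4 to 7 and falls 14 to 23, mutant pilocarpine calls 0 higher and 0 to 1 lower, mutant control calls 0 either way, and response differences 3 to 6 positive and 2 to 4 negative; where a group then held 2 arrays, the pooled spread was used. Of the named members' values under alternatives, 744 kept their side of the threshold, 161 lost a call and 1 (Zscan10) gained one. With dim probe sets left out, 54 members were tested. The 3 mice per group and small fold changes limit calls near the threshold, and the cause of lost calls was not tested.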
